A study of Saccharomyces cerevisiae with 5 samples.

Results

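The 35 genes described here encode 24 peroxisome assembly proteins (peroxins, the PEX genes) and 11 enzymes and carriers of peroxisomal fatty acid breakdown of budding yeast, Saccharomyces cerevisiae. They were taken from a list of names and matched to the arrays by open reading frame (ORF): 28 carry the same name in the array annotation, and the other 7 (PEX25, PEX27 and PEX28 to PEX32) were named through the RefSeq gene table. A few further peroxins were counted among the other peroxisomal genes described last. All 35 were found among the 6205 ORFs on the arrays. Of their 175 possible values over 5 arrays, 164 were present, with all 5 values for 26 genes, 4 values for 8 genes and fewer for 1 gene, PXA1. The genes lie on 13 of the 16 yeast chromosomes, and the RefSeq table gives 1 of them, FAA2, an overlapping neighbour (BUD25), whose RNA its spot may not separate.

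The series compared RNA of yeast cells collected 1 h after dilution of an overnight culture into rich YP medium with 20% glucose with RNA of cells diluted into YP with 2% glucose. The overnight culture had itself grown in 2% glucose, so both groups had the same history and differed in the sugar of the new medium. Each of 5 two-colour arrays carried both RNAs: the RNA labelled 20% glucose was in Cy3 on arrays 1, 3 and 4 and in Cy5 on arrays 2 and 5. The strain, and whether the arrays come from separate cultures, are not given in the sources used here, so p-values reflect only how far these arrays scatter, which may be technical scatter. A ratio from total RNA of a culture cannot tell apart a change in every cell from a change in part of the cells.

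Peroxisomes are organelles bounded by a single membrane, and in this yeast they are the only place where fatty acids are broken down by beta-oxidation. Matrix enzymes are made in the cytosol and carried across the membrane by receptors that read a targeting signal, dock at the membrane, release the cargo and are pulled back out after ubiquitin is attached. In yeast many of these genes are known to be repressed by glucose and strongly induced by oleic acid through the transcription factors Oaf1, Pip2 and Adr1. The study's design text names no oleic acid, and both media held glucose.

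All values are log2 ratios, RNA labelled 20% over RNA labelled 2% glucose, with the direction taken from the dye labels. That direction went against known markers. GPD1, the glycerol 3-phosphate dehydrogenase induced by osmotic stress, was at -3.96 ± 0.97 (standard error of the limma fit, SE; adjusted p = 0.0733), and HXT1, a transporter induced by high glucose, at -2.54 ± 0.26, both below 0 on 5 of 5 arrays. GPP2, the phosphatase that completes glycerol synthesis, was at -2.33 ± 0.38, and HXT2, a transporter repressed by high glucose, at 2.26 ± 0.15. Exchanging the dye labels would turn each sign given here and leave sizes and tests as they are. Over all ORFs the 2 arrays 4 and 5 had Pearson's r = 0.951 with each other, arrays 1 to 3 had r between 0.597 and 0.861 among themselves, and r across these sets lay between 0.256 and 0.374. The members' spots were 2.48 to 33.8 times their local background on arrays 4 and 5, with none under 2 times and none saturated, and scanner values of arrays 1 to 3 were not used here.

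Over the 5 arrays the peroxisome and beta-oxidation genes had small estimates on both sides of 0. None of the 34 genes with at least 4 values passed the threshold (adjusted p under 0.05 in limma over all genes tested), where 3.69% of all 5447 genes did, 2.24% higher and 1.45% lower. At an unadjusted p under 0.05, 5 of the 34 were found, against 28.5% of all genes, and with a trended and robust prior limma also called 0 members and 0 of all genes (29.6% of all genes had an unadjusted p under 0.05 there). Estimates ran from -0.43 (SPS19) to 0.54 (PEX21), with 13 above and 21 below 0 (49.6% of all genes were below). The median was -0.07 over the members and 0.003 over all genes tested, and the median size without its sign was 0.17 and 0.18.

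The absence of calls does not show that there was no change. The intervals bound its size, but the fit treats the 5 arrays as independent, so these intervals may be too narrow. For 34 of 34 members the 95% interval of the estimate lay within 1 of 0 on the log2 scale, a 2-fold change, as it did for 91.2% of all genes. This bounds the mean over the array sets, and for PXA2 fitted on arrays 1 to 3 alone the interval reached 1.15. The lowest bound was -0.74 for SPS19 and the highest 0.98 for PXA2. On single arrays, 1 of the 164 values reached 2-fold, that of PXA2 on array 3. Over all ORFs, between 2.97% and 5.27% of the values on an array did. The sign was the same on every array with a value for 13 of 34 members (38.2%), 3 higher and 10 lower, against 36.6% of all genes, 17.2% higher and 19.4% lower.

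**Figure D1:**
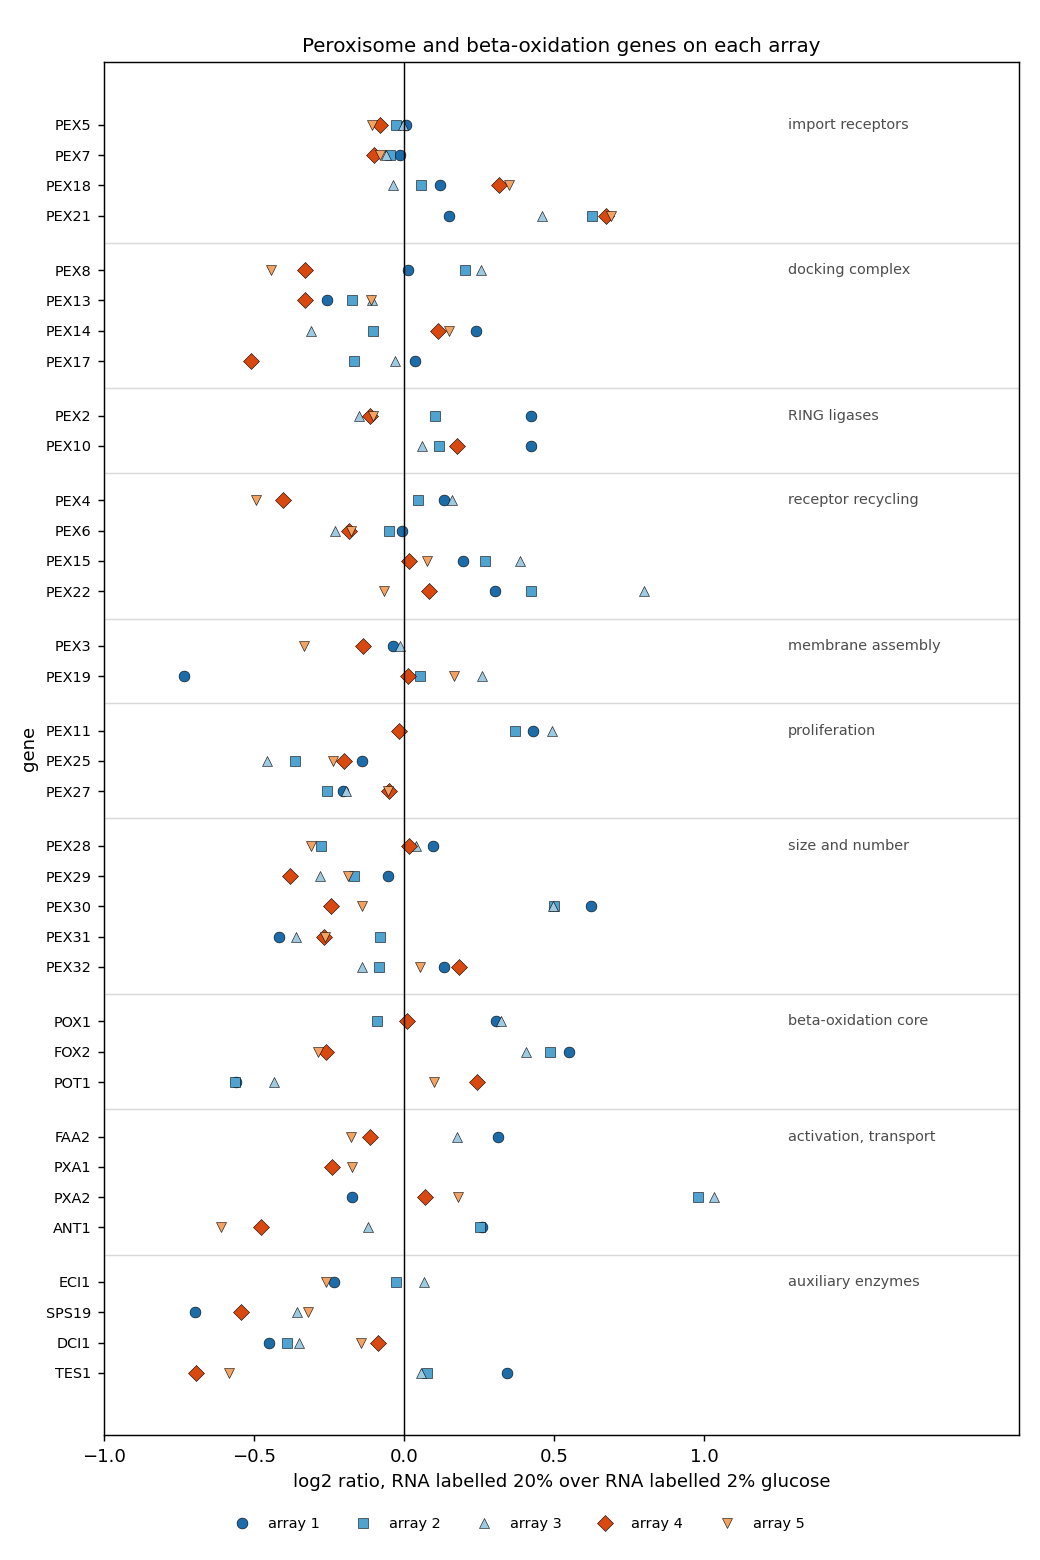
Log2 ratio, RNA labelled 20% over RNA labelled 2% glucose (horizontal axis), of each of the 35 genes (rows, grouped by role), with 1 symbol per array (blue for arrays 1 to 3, orange for arrays 4 and 5). Most points lie within 0.5 of 0, and for FOX2, POT1, PEX30, TES1 and PEX4 the blue and orange symbols fall on opposite sides of 0.

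The import receptors held the member with the smallest p. PEX21, a co-receptor of Pex7 for the cargo signal PTS2, was at 0.15, 0.62, 0.46, 0.67 and 0.69 on arrays 1 to 5. All 5 arrays were above 0, with array 1 the lowest. The estimate was 0.54 ± 0.10 (SE), a 1.46-fold level, and its adjusted p = 0.0505 in limma lay just above the threshold. On array 4 its spot measured 503 intensity units above background for the RNA labelled 20% and 336 for the RNA labelled 2%, and on array 5 it measured 695 and 374. With a term for the array set (arrays 1 to 3, or 4 and 5) PEX21 passed (0.56 ± 0.08, adjusted p = 0.00704 in limma), where 29.7% of all genes did. It also passed in 4 of the 14 other alternatives: without a dye term (16.9% of all genes), with quantile normalization (5.82%), with only genes that have 5 values (6.07%) and with table values of 10 or more in size left out (4.48%). It did not pass in the other 10, with adjusted p between 0.0501 and 0.199 in limma.

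PEX18, the paralog of PEX21 with the same role, was at 0.12, 0.06, -0.04, 0.32 and 0.35. Arrays 4 and 5 were above arrays 1 to 3 without overlap. The 5-array estimate was 0.17 ± 0.10 (adjusted p = 0.296 in limma). The cargo receptors themselves stayed near 0: PEX5, which reads the signal PTS1, had ratios between -0.11 and 0.01, and PEX7, which reads PTS2, between -0.10 and -0.01. Their intervals, -0.23 to 0.14 for PEX5 and -0.24 to 0.12 for PEX7, are among the narrower ones of the set.

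The docking and translocation genes, whose products receive the loaded receptors at the membrane, had signs on both sides of 0. PEX13, a docking protein of the membrane, was below 0 on 5 of 5 arrays, between -0.33 and -0.11, with an estimate of -0.19 ± 0.08 (adjusted p = 0.186 in limma). PEX14, its partner in docking, ran from -0.31 on array 3 to 0.24 on array 1. PEX14 thus spanned both signs on arrays 1 to 3, while PEX13 did not. PEX17, a further docking subunit, was at 0.04, -0.17, -0.03 and -0.51 on arrays 1 to 4, so that array 4 stood below the others. PEX8, which links the docking and the ubiquitin ligase complexes from the matrix side, was at 0.01, 0.20 and 0.26 on arrays 1 to 3 and at -0.33 and -0.44 on arrays 4 and 5.

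Among the genes that modify and recycle the receptors, signs were mixed as well. The RING finger ubiquitin ligase subunits PEX2 and PEX10 were both highest on array 1, at 0.42 each, and had estimates of 0.03 ± 0.12 and 0.17 ± 0.12. PEX4, the ubiquitin-conjugating enzyme, was at 0.13, 0.05 and 0.16 on arrays 1 to 3 and at -0.40 and -0.49 on arrays 4 and 5. PEX22, the membrane anchor of Pex4, was at 0.30, 0.42 and 0.80 on arrays 1 to 3 and at 0.08 and -0.07 on arrays 4 and 5. Enzyme and anchor thus had their lower values on the same arrays. PEX6, an ATPase that pulls receptors out of the membrane, was below 0 on 5 of 5 arrays (-0.23 to -0.01), and PEX15, its anchor, was above 0 on 5 of 5 (0.02 to 0.39), neither passing (adjusted p = 0.338 and 0.236 in limma).

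The membrane assembly factors PEX3 and PEX19, which insert peroxisomal membrane proteins, were estimated at -0.20 ± 0.10 and -0.02 ± 0.16. PEX3 lay between -0.33 and -0.01 on 4 arrays. PEX19 was at -0.73 on array 1 and between 0.01 and 0.26 on the other 4, so that its estimate rests on how array 1 is read: without replicate 1 it was 0.12, and over all 5 arrays -0.02.

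Among the genes for peroxisome division and number, PEX11 differed in sign from its relatives on arrays 1 to 3 but not on array 4. PEX11, which elongates the membrane before fission, was at 0.43, 0.37 and 0.49 on arrays 1 to 3 and at -0.02 on array 4. PEX25 was at -0.14, -0.36, -0.46, -0.20 and -0.24, and PEX27 between -0.26 and -0.05. Both relatives of Pex11 were thus below 0 on every array, with estimates of -0.28 ± 0.09 and -0.15 ± 0.08 that did not pass (adjusted p = 0.108 and 0.268 in limma). PEX25 passed with a term for the array set (-0.27, adjusted p = 0.0425 in limma), where 29.7% of all genes did.

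The PEX28 to PEX32 proteins control the size and number of peroxisomes, and Pex30 and Pex31 lie in the endoplasmic reticulum where peroxisomes form. PEX30 was at 0.62, 0.50 and 0.49 on arrays 1 to 3 and at -0.24 and -0.14 on arrays 4 and 5. PEX31, its paralog, was at -0.42, -0.08, -0.36, -0.27 and -0.26. The paralogs therefore ran opposite on arrays 1 to 3 and had the same sign on arrays 4 and 5. PEX31 was at -0.26 ± 0.08 over the 5 arrays (adjusted p = 0.106 in limma). With a term for the array set it passed (adjusted p = 0.0396 in limma), where 29.7% of all genes did. PEX29 was below 0 on 5 of 5 arrays (-0.38 to -0.05), and PEX28 and PEX32 had values on both sides of 0.

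The 3 enzymes of the beta-oxidation spiral differed in sign. POX1, the acyl-CoA oxidase of the first step, was at 0.31, -0.09, 0.32 and 0.01 on arrays 1 to 4. FOX2, the multifunctional enzyme of the middle steps, was at 0.55, 0.49 and 0.40 on arrays 1 to 3 and at -0.26 and -0.29 on arrays 4 and 5. POT1, the thiolase of the last step, was at -0.56, -0.56 and -0.44 on arrays 1 to 3 and at 0.24 and 0.10 on arrays 4 and 5. FOX2 and POT1 thus had opposite signs on each of the 5 arrays. Over the 5 arrays they were at 0.17 ± 0.17 and -0.24 ± 0.16, estimates that average opposite values.

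Activation and transport of fatty acids held the largest single value of the set. PXA2, a subunit of the fatty acyl-CoA transporter, was at -0.18, 0.98, 1.03, 0.07 and 0.18, high on arrays 2 and 3 alone, and had the widest interval of the 34 genes (-0.09 to 0.98). PXA1, the other subunit, had values on arrays 4 and 5 only, -0.24 and -0.17, on which PXA2 was at 0.07 and 0.18. The transporter subunits, which work as a pair, therefore had opposite signs on the arrays that measured both. Fitted on arrays 4 and 5 alone, the 95% interval of PXA2 spanned 0 (-0.03 to 0.28), and that of PXA1 lay below 0 (-0.35 to -0.06). ANT1, which brings ATP into the peroxisome, was at 0.26, 0.25 and -0.12 on arrays 1 to 3 and at -0.48 and -0.61 on arrays 4 and 5. FAA2, which activates medium-chain fatty acids, was at 0.31 and 0.18 on arrays 1 and 3 and at -0.11 and -0.18 on arrays 4 and 5.

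The 4 auxiliary enzymes had estimates below 0, and 0 of them passed. SPS19, the 2,4-dienoyl-CoA reductase for unsaturated fatty acids, was at -0.70, -0.36, -0.54 and -0.32 on arrays 1, 3, 4 and 5. It was below 0 on every array with a value and had the lowest estimate of the set (-0.43 ± 0.12, adjusted p = 0.106 in limma). SPS19 passed with a term for the array set (adjusted p = 0.0481 in limma), where 29.7% of all genes did. DCI1, named for dienoyl-CoA isomerase, was at -0.45, -0.39, -0.35, -0.09 and -0.14. It too was below 0 on 5 of 5 arrays and passed with a term for the array set (-0.26, adjusted p = 0.0322, against -0.28 and 0.128 over the 5 arrays). ECI1, the enoyl-CoA isomerase and a paralog of DCI1, ran from -0.26 to 0.07. TES1, a thioesterase that releases free fatty acids from CoA, was at 0.34, 0.08 and 0.05 on arrays 1 to 3 and at -0.69 and -0.58 on arrays 4 and 5. Its sign thus changed with the array set. On array 4 the TES1 spot measured 840 intensity units above background for the RNA labelled 20% and 1505 for the RNA labelled 2%. On array 5 it measured 259 and 328, all before normalization.

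**Figure D2:**
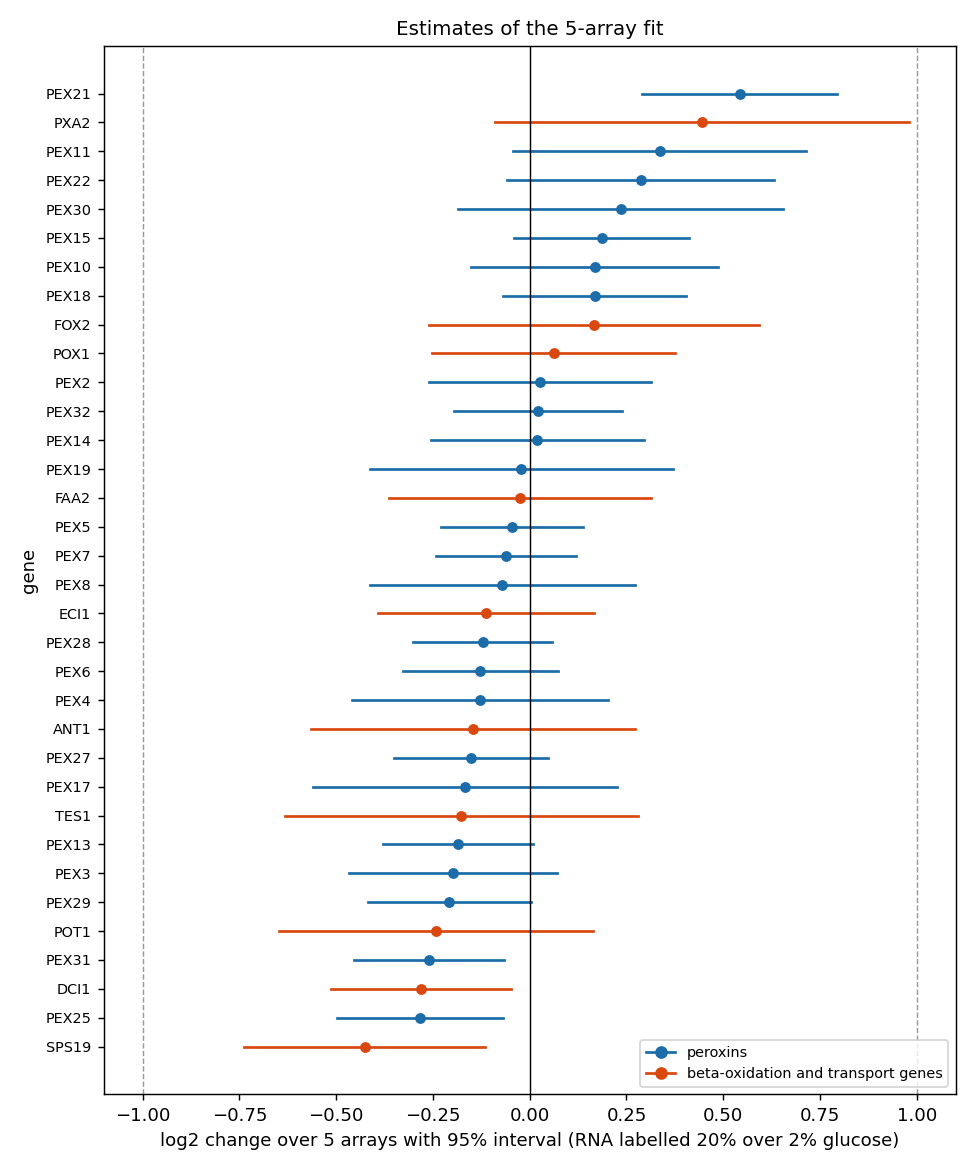
Estimated log2 change over the 5 arrays (points) with its 95% interval from limma (bars) for the 34 genes with at least 4 values, sorted by size, with dashed lines at a 2-fold change. All 34 intervals lie between the dashed lines, and PEX21 at 0.54 and SPS19 at -0.43 are at the ends.

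Several members had different ratios on the array sets. The difference, arrays 1 to 3 minus arrays 4 and 5, passed for 5 of 34 members (14.7%), 4 with a higher and 1 with a lower ratio on arrays 1 to 3, near the 12.8% of all genes (6.17% higher and 6.61% lower). FOX2 averaged 0.48 ± 0.07 on the first set (n = 3, SD) and -0.27 ± 0.02 on the second (n = 2, SD), a difference of 0.75 ± 0.13 (SE; adjusted p = 0.0221 in limma). PEX30 averaged 0.54 ± 0.07 and -0.19 ± 0.07 on the same arrays, a difference of 0.73 ± 0.13, with an adjusted p = 0.0248 in limma. POT1 went the other way, at -0.52 ± 0.07 and 0.17 ± 0.10, a difference of -0.71 ± 0.13 (adjusted p = 0.0248 in limma). FOX2 and PEX30 were thus higher on arrays 1 to 3, and POT1 was lower there. TES1 averaged 0.16 ± 0.16 and -0.64 ± 0.08, with the largest difference of the set, 0.79 ± 0.15 (adjusted p = 0.0291 in limma), and PEX4 averaged 0.11 ± 0.06 and -0.45 ± 0.06 (adjusted p = 0.0432 in limma). In each of these 5 genes all 3 arrays of the first set lay on one side of 0 and both arrays of the second on the other.

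These calls need all of arrays 2, 4 and 5. In limma, 0 members passed without replicate 2, 4 or 5, where 3.41%, 1.99% and 5.01% of all genes did. Without replicate 3 FOX2, PEX30, POT1, TES1 and ANT1 passed (17.1% of all genes), and without replicate 1 the 5 named genes and 6 more did (46.8% of all genes). Over the 5 such fits, an alternative chosen after seeing the data, the difference lay between 0.72 and 0.79 for FOX2 and between -0.74 and -0.66 for POT1. The next smallest adjusted p were those of ANT1 (0.68 ± 0.17, adjusted p = 0.058) and PEX8 (0.54 ± 0.15, adjusted p = 0.0657 in limma), which did not pass. Over all members, the sets did not overlap for 20 of 34 (58.8%), against 59.9% of all genes, and had one sign on the first set and the other on the second for 8 (23.5%), against 19.2% of all genes.

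**Figure D3:**
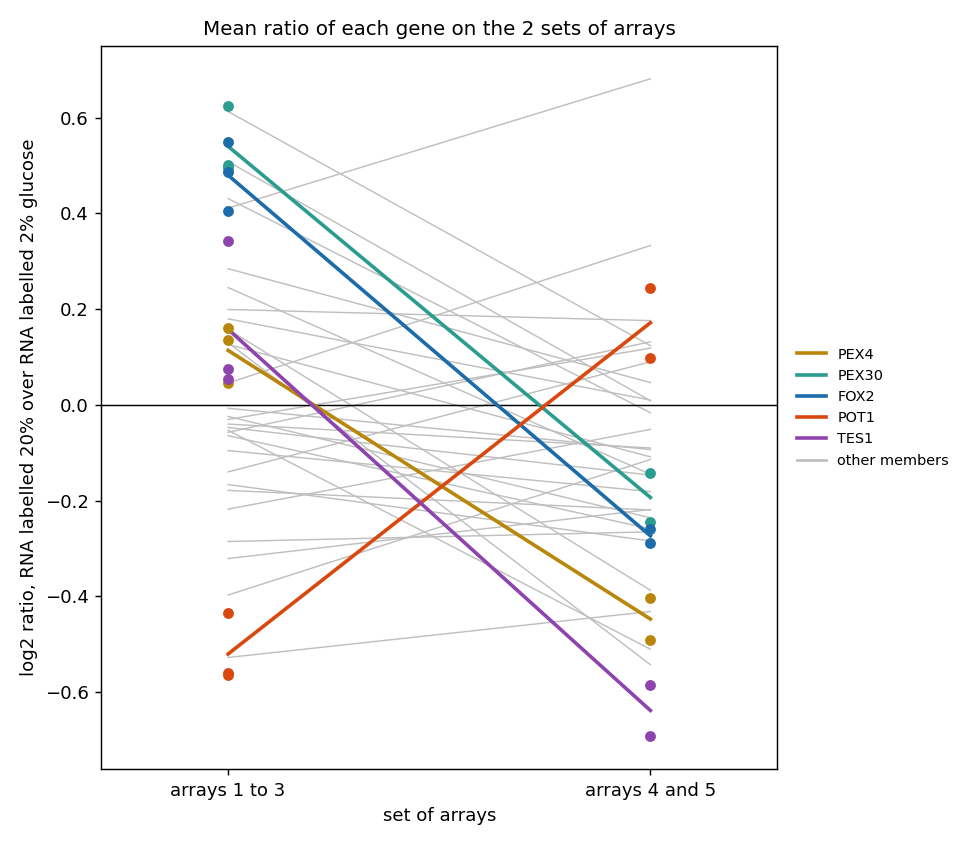
Mean log2 ratio (RNA labelled 20% over RNA labelled 2% glucose) of each gene on arrays 1 to 3 (left) and on arrays 4 and 5 (right), joined by a line, for the 34 genes tested. Coloured lines, with a point per array, are the 5 genes whose difference passed, and FOX2, PEX30, TES1 and PEX4 fall from left to right across 0 while POT1 climbs.

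Fitted alone, both sets called PEX21 as higher. FOX2 and PEX30 were called as higher on arrays 1 to 3 and as lower on arrays 4 and 5. The share of all genes called in both fits was not counted. On arrays 1 to 3 the fit called 6 of 31 members (19.4%, against 17.4% of all genes, 11.5% higher and 5.96% lower): PEX30 (0.53), FOX2 (0.48), PEX22 (0.49), PEX21 (0.46) and PXA2 (0.70) as higher and POT1 (-0.53) as lower, with adjusted p between 0.0205 and 0.042 in limma. Without the dye term PEX21 and PXA2 were no longer among them, and PEX11 and DCI1 were (6 called, against 24.4% of all genes). On arrays 4 and 5 the fit called 15 of 30 members (50.0%, against 54.4% of all genes), 2 higher (6.67%, against 27.9%) and 13 lower (43.3%, against 26.6%). The 2 higher ones were the co-receptors PEX21 (0.68) and PEX18 (0.33). The lower ones ran from TES1 (-0.64), ANT1 (-0.54), PEX4 (-0.45), SPS19 (-0.43) and PEX8 (-0.39) to PEX6 (-0.18). Scanner ratios, present for all 35 members, gave 3 higher and 12 lower after loess (51.1% of all genes called), with PEX2, PEX10 and PEX17 in place of PEX3, PEX6 and PEX30, and 2 higher and 12 lower after plain subtraction (46.5% of all genes called). The median of the members was -0.15 on arrays 4 and 5 and -0.01 on arrays 1 to 3, where those of all genes tested were -0.005 and -0.02. With 1 residual degree of freedom in each fit, the p-values rest mostly on a spread pooled across genes.

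The scanner files of arrays 4 and 5 hold readings for 5 members that have no value in the deposited table there. None of these 5 spots is flagged, and the sources used here do not say why the values are missing. After background correction and loess normalization, array 5 gave 0.21 for PEX10, -0.47 for PEX17, -0.02 for PEX11 and 0.16 for POX1, and array 4 gave -0.06 for ECI1. PEX17 was thus low on both arrays, at -0.51 in the table on array 4. PEX11 was near 0 on both, unlike on arrays 1 to 3. Over all members, table and scanner ratio differed by a median of 0.04 and at most by 0.25 on the log2 scale.

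Of 47 other genes, most of them of peroxisomes and fatty acid metabolism, 43 could be tested. Among these, 2 were higher (4.65%, against 2.24% of all genes) and 0 lower. CIT2, the peroxisomal citrate synthase of the glyoxylate cycle, was above 0 on 5 of 5 arrays (0.61 to 2.31), with an estimate of 1.53 ± 0.22 (adjusted p = 0.0422 in limma). FIS1, which recruits the fission machinery to peroxisomes and mitochondria, was at 0.40, 0.41, 0.79, 0.72 and 0.94 (0.65 ± 0.12, adjusted p = 0.0447 in limma). With each array left out in turn the estimates lay between 1.29 and 1.77 for CIT2 and between 0.52 and 0.79 for FIS1. Of these calls only that of CIT2 without replicate 4 remained, but these fits called few genes at all: 91 of 4829 without replicate 4, and 0 to 3 without any other. A term for the array set let 20 of the 43 pass (46.5%, 16 higher and 4 lower), and 5 of 34 members (14.7%, 1 higher and 4 lower), against 29.7% of all genes (16.4% higher and 13.3% lower).

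Of the 6 regulators tested, 0 passed over the 5 arrays. OAF1 and PIP2, which encode the factors of oleate induction, were at -0.10 ± 0.09 and 0.10 ± 0.08. ADR1, the activator of glucose-repressed genes, was above 0 on 5 of 5 arrays but unevenly, at 0.40, 0.80, 1.52, 0.18 and 0.12 (adjusted p = 0.166 in limma). Of the peroxisomal enzymes around the pathway, CTA1, the catalase that removes the peroxide made by Pox1, was at -0.32 ± 0.16, and IDP3, an isocitrate dehydrogenase that supplies NADPH to Sps19, at -0.13 ± 0.12. PNC1, a nicotinamidase that is carried into peroxisomes, was at 0.02, 0.97, 0.11 and 0.10 on arrays 1, 2, 4 and 5, so that its estimate of 0.30 ± 0.17 rests on array 2. These 3 did not pass. FAA1, a long-chain acyl-CoA synthetase, was at 0.02 ± 0.12, and FAA4, its relative, had values on 3 arrays only (-0.75 to 0.31).

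The difference between array sets passed for 7 of these 43 genes (16.3%, near the 12.8% of all genes), 4 higher and 3 lower on arrays 1 to 3. They were MDH3, PXP1, OLE1, GPD1, YAT1, LYS1 and LYS4. MDH3, the peroxisomal malate dehydrogenase that regenerates NAD for Fox2, was at 0.75, 0.72 and 0.94 on arrays 1 to 3 against -0.12 and -0.02 on the second set (adjusted p = 0.02 in limma), the order also seen for FOX2. PXP1 was at 0.28 on each of arrays 1 to 3 against -0.30 and -0.33 on the second set (adjusted p = 0.0353 in limma). OLE1, the fatty acid desaturase, was higher on arrays 1 to 3 by 1.90, and GPD1 by 4.69. The carnitine acetyltransferase YAT1 (-1.43) and the lysine genes LYS1 (-1.11) and LYS4 (-0.79) were lower on arrays 1 to 3. Of 16 further genes known to be repressed by glucose, 14 were tested over the 5 arrays, and 2 passed (14.3%, against 3.69% of all genes), ADH2 and HXK1, both higher, with a median of 0.13 over the 14. With a term for the array set 6 were higher and 2 lower (57.1% called, against 29.7% of all genes). Arrays 1 to 3 alone gave 6 higher and 1 lower of 14 tested (50.0%, against 17.4%). Arrays 4 and 5 alone gave 6 higher and 5 lower of 14 tested (78.6%, against 54.4%). The difference between array sets passed for 4 of 14 (28.6%, against 12.8%). ALD4, HXT7 and PCK1 were higher on arrays 1 to 3, and SUC2 was lower there.

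**Figure D4:**
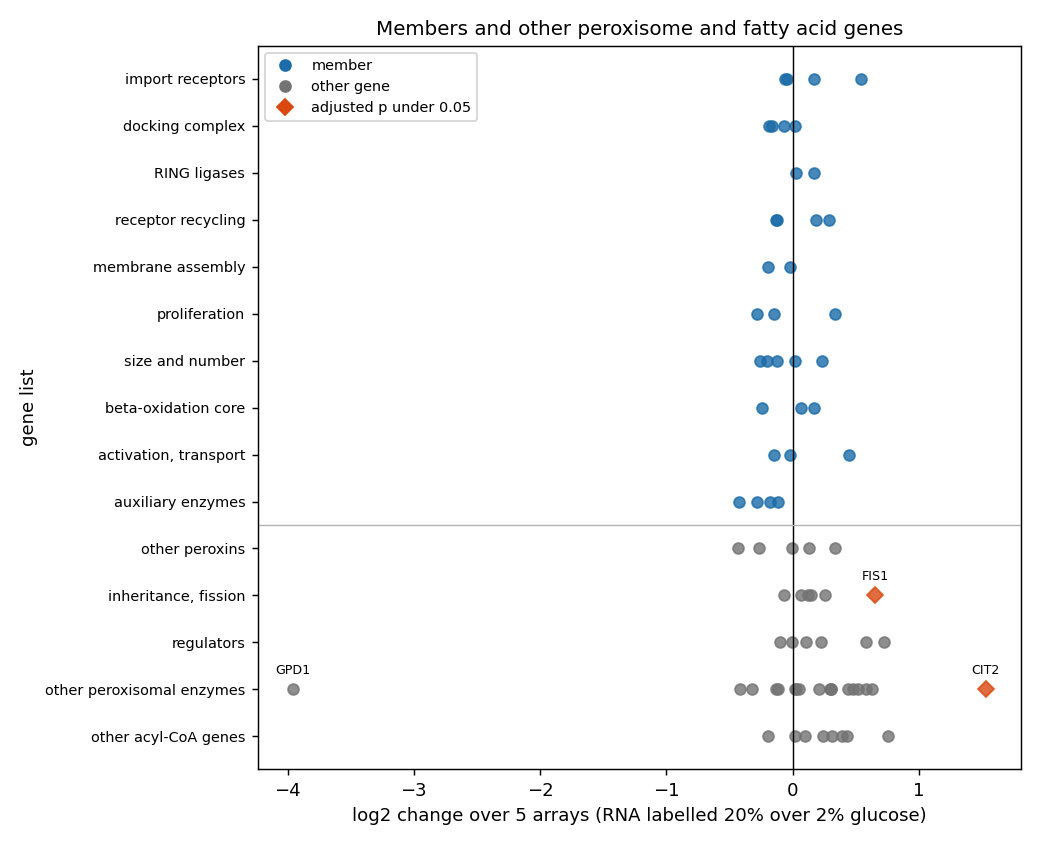
Estimated log2 change over the 5 arrays (horizontal axis) of each tested gene, 1 row per list, with the 10 lists of members above the line and the 5 lists of other genes below it. Orange diamonds mark genes with an adjusted p under 0.05, which are CIT2 and FIS1; the members lie between -0.43 and 0.54, and GPD1 at -3.96 is the lowest point.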

How the data were processed

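The deposited table holds log2 ratios of both channels, which the authors normalized; the method was not given in the sources used here. On arrays 4 and 5 it carries a decimal slip: 258 and 262 values are 10 or more in size and have a median multiple of 10.2 of the scanner ratio. They were divided by 10, and 0 of them belong to the members. Per the file headers, the scanner files of arrays 4 and 5 give foreground and background intensity per spot and channel, and a flag that is a score of spot quality. Set against these, the table is 2% over 20% glucose by the dye labels, so all values were multiplied by -1. Arrays 1 to 3, not set against scanner values, were taken to run the same way: GPD1, GPP2, HXT1 and HXT2 each had 1 sign on all 5 arrays. ORFs with more than 1 spot were averaged.

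Ratios were fitted with limma 3.58.1 in R 4.3.3 (lmFit, eBayes, two-sided) with a dye term, for the 5447 ORFs with at least 4 values, with Benjamini-Hochberg adjustment over all of them. The set of arrays (1 to 3, or 4 and 5) was a further term for its difference. Scanner ratios used normexp (offset 50) and loess. Alternatives changed the dye and set terms, filters, normalization, prior, source of ratios and arrays used. The number of arrays limits the precision. The procedure was tested on simulated data with independent noise on each array, so that test does not cover differences between the array sets. The members and lists were chosen with earlier results of these data known. All members may be named; of the other lists, genes past the threshold over the 5 arrays or for the set difference and 10 set genes are named.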

Additional observations from a re-analysis of the deposited data

Results flagged for a closer look

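A single array stood apart from the other 4 for 1 of the 34 members checked: PEX19 was at -0.73 on array 1, and its gap to the next value was 0.753 of the whole range, above the critical value of 0.71 for 5 values. Chance would mark about 1 in 20 genes in this way if the arrays scattered independently. The share over all genes was not counted.

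The arrays 1 to 3 minus arrays 4 and 5 difference passed in limma for 5 of 34 members (14.7%), near the 12.8% of all genes. It was 0.75 for FOX2, 0.73 for PEX30, 0.79 for TES1 and 0.54 for PEX4, which were higher on arrays 1 to 3, and -0.71 for POT1, which was lower there. The sources used here do not say how these array sets differ in culture or handling, and the part of such differences was not tested.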

How the results depend on the processing

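The count of 0 members over the 5 arrays was also 0 with loess scanner ratios (3.79% of all genes), without dim spots (3.68%) and with genes on at least 3 arrays (3.43%). It was 0 to 0 without each array in turn, 0 with a trended and robust prior and 0 with plain subtraction, but these fits called only 0% to 1.88%, 0% and 1.06% of all genes and so say little about the members. It was 4 without the dye term (PEX21, PEX25, PEX31 and SPS19, 16.9% of all genes) and 5 with a term for the array set (29.7% of all genes). It was 1, PEX21, with values of 10 or more left out (4.48% of all genes), with genes on all 5 arrays (6.07%) and with quantile normalization (5.82%). The members' median lay between -0.11 and -0.01 in these fits. Without replicate 1, 2 or 3, the count for the difference between array sets was 11, 0 and 5, where 46.8%, 3.41% and 17.1% of all genes passed. PEX4 missed the threshold for this difference with loess scanner ratios (adjusted p = 0.0546 in limma) and without slipped values (0.0539). The count of 2 other genes over the 5 arrays was 0 to 1 without each array in turn (0% to 1.88% of all genes). It was 20 with a term for the array set (29.7% of all genes). The sign of some 5-array estimates turned, none of them past the threshold. Leaving out each array in turn, the lowest and highest estimates were -0.36 and 0.070 for ANT1, -0.028 and 0.36 for FOX2, -0.044 and 0.10 for PEX14, -0.12 and 0.12 for PEX19, -0.066 and 0.079 for PEX2, -0.013 and 0.072 for PEX32, -0.26 and 0.0051 for PEX4, and -0.23 and 0.091 for PEX8. The sign also turned for FAA2 without the dye term (0.050) and with a term for the array set (0.035), for POX1 with that term (-0.0395), for PEX2 with scanner ratios (-0.028 with loess, -0.042 with plain subtraction) and for PEX14 with plain subtraction (-0.0022). The cause was not tested. Each array holds both RNAs, so each ratio already pairs them and the fits used that pairing. No further pairing was made because the labels place all arrays in 1 group. They do not say whether arrays of opposite dye, such as 4 and 5, hold the same RNA. Leaving out an array within a set leaves no residual degree of freedom, so it was not run.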
